A study of Mus musculus with 74 samples.

Results

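The 45 genes described here encode the mouse Wnt ligands, their receptors and the secreted proteins that strengthen or block the signal. They were taken by gene symbol alone, with no measured value in the choice: 19 Wnt ligands, 10 Frizzled (Fzd) receptors, the co-receptors Lrp5 and Lrp6, 4 R-spondins (Rspo), 4 secreted Frizzled-related proteins (Sfrp), 4 Dickkopf proteins (Dkk), and the inhibitors Wif1 and Notum. All 45 were found among the 24015 symbols of the RNA-seq count table. They were followed in 31 RNA libraries of 15 groups. The series also holds ATAC-seq and CDX2 ChIP-seq samples, for 74 samples in all, which were not analysed here.

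Wild-type libraries came from untreated CD1 embryos: forestomach, hindstomach and small intestine at embryonic day 12, 14 and 16 (E12, E14, E16), and small intestine at E18. The small intestine of E12 and E14 is labelled midgut. From E12 to E16 the tissue was dissociated with trypsin and Epcam-positive (epithelial) cells were sorted by flow cytometry, whereas E18 and adult villi were released with EDTA and not sorted. CDX2 is a homeodomain factor that directs intestinal identity, and 4 groups were labelled as its knockout, all on a mixed B6;129 background. Small intestine of E16 embryos with Cdx2f/f; Shh-Cre, deleted at E10, gave 3 libraries. Shh-Cre is active in the early gut endoderm. Small intestine of Cdx2f/f; Villin-Cre embryos, in which Villin drives the recombinase in intestinal epithelium after tamoxifen, gave 2 libraries at E16 after deletion at E13 and 2 at E18 after deletion at E15. Those embryos had received tamoxifen by a gavage of 5 mg. Adult ileum villi came from Cdx2f/f; Villin-Cre mice given 1 mg tamoxifen on 5 days and killed 3 days later, and from Cdx2f/f mice given sunflower oil, both B6;129. Each group had 2 libraries apart from the E10 deletion. The embryonic knockouts therefore differed from their wild-type libraries in strain and Cre as well as in Cdx2, and those of E13 and E15 also in tamoxifen. Strain, Cre, treatment and deletion cannot be told apart in these comparisons. The adult knockout shared its strain with its control but differed in Cre and in tamoxifen against sunflower oil, which cannot be told apart from the deletion either.

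Wnt ligands are lipid-modified secreted proteins that bind a Frizzled receptor. In the canonical branch, a Frizzled and Lrp5 or Lrp6 together stop the breakdown of beta-catenin, which then works with TCF/LEF factors at target genes such as Axin2. Sfrp proteins and Wif1 bind the ligand, Dkk1 blocks the co-receptors, and Notum strips the lipid from the ligand. R-spondins keep Frizzleds at the cell surface by removing the ligases Rnf43 and Znrf3. In the adult gut the pathway maintains the crypt stem cells, and in the embryo ligands and antagonists come from both epithelium and mesenchyme.

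Library totals lay between 5970227 and 62463167 counts (median 21910062). The 2 E16 forestomach libraries were the shallowest, and every other embryonic library had at least 12812432. Levels below are in CPM, counts relative to library size, scaled by the edgeR TMM factors separately for the embryonic and the adult libraries, so an embryonic and an adult level rest on separate scalings. The floor was set at 3 counts in each library. Replicates are libraries that carry separate titles, and nothing in the labels says they are separate litters or cultures, so p-values measure the spread between these libraries, which may be technical.

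Cdx2 itself was read first. It stood at 196 and 218 CPM in wild-type E16 small intestine and at 17.4, 14.5 and 27.5 in the E10 deletion. The other libraries labelled knockout did not have fewer Cdx2 counts than their wild type: 213 and 217 CPM after deletion at E13, 388 and 371 after deletion at E15 against 200 and 206 at E18, and 472 and 462 against 242 and 248 in adult ileum. Counts per gene do not resolve the deleted part of the gene, so this does not check those labels.

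The libraries labelled hindstomach at E12 went against that label. Cdx2 stood there at 116 and 160 CPM, whereas hindstomach had 12.7 and 6.2 at E14. The summed level of 6 hindstomach markers (Cldn18, Gkn1, Gkn2, Tff2, Muc5ac, Barx1) was 0.539 to 2.92 CPM in them, against 294 to 336 in hindstomach at E14 and 652 to 653 at E16. Hoxb13, a posterior Hox gene, stood at 150 to 159 CPM, with 0.587 as the highest value in the other 29 libraries, and Hoxd13 at 29.6 to 32.3 against at most 0.0352. Gata4, a factor of anterior endoderm, stood at 0.369 to 0.568 CPM against at least 14.2 elsewhere. These genes were chosen after their values were seen. The group is called by its label below, and each result that rests on it is set beside a value that does not.

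Markers of other cell types were also uneven. The summed level of 11 mesenchyme markers was 117 to 359 CPM over the E12 and E14 libraries, but 12000 to 14400 in E16 forestomach, 6330 to 6740 in E16 hindstomach and 1510 to 1610 in E16 small intestine. All 6 muscle markers were above the floor in E16 forestomach, with a sum of 16100 to 20800, against 1810 to 1830 in hindstomach and 217 to 275 in small intestine. The 5 blood markers summed to 14200 to 19300 CPM in E16 forestomach and 1020 to 1460 in E16 hindstomach. The 6 epithelial markers summed to 835 to 904 in E16 forestomach and to at least 2780 in the other wild-type groups. The 4 forestomach markers (Krt5, Krt14, Trp63, Sox2) summed to 1930 to 2390 in E16 forestomach, against 176 to 204 in E12 forestomach. In bulk libraries, fewer cells of a type and less RNA per cell cannot be told apart.

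RefSeq promoter sequences (mouse build GRCm38.p6) were at hand for 28 of the 45 genes. The 250 bases before the annotated start are given for the 4 members on which most of the results below turn: Wnt4 and Wnt11, which were called higher in 3 of the 4 knockout comparisons, and Fzd5 and Sfrp5, which separated the organs. They lie at chr4:137277385-137277634 on the plus strand (Wnt4), chr7:98834862-98835111 and chr7:98838595-98838844 on the plus strand (the 2 annotated starts of Wnt11), chr1:64737751-64738000 on the minus strand (Fzd5) and chr19:42202253-42202502 on the minus strand (Sfrp5). Capitals mark a match to the TCF/LEF core.
Wnt4: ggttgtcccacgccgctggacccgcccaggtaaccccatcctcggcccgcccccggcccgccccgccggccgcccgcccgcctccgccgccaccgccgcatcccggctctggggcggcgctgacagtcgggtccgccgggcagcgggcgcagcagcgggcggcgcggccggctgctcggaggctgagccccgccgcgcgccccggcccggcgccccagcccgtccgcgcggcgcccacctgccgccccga
Wnt11 window 1: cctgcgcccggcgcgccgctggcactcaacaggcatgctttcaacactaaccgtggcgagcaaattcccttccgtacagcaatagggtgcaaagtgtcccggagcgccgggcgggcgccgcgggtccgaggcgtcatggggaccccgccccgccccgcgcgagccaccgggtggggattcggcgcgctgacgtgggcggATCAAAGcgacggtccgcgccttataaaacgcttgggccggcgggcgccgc
Wnt11 window 2: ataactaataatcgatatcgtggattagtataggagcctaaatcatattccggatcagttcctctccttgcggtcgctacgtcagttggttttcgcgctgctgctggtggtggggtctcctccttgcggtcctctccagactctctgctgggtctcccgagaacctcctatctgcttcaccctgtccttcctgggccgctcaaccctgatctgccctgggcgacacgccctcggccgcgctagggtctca
Fzd5: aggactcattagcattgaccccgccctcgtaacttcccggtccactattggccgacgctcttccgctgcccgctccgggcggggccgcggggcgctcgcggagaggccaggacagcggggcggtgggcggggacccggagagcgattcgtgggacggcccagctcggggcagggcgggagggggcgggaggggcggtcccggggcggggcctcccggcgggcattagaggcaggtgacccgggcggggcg
Sfrp5: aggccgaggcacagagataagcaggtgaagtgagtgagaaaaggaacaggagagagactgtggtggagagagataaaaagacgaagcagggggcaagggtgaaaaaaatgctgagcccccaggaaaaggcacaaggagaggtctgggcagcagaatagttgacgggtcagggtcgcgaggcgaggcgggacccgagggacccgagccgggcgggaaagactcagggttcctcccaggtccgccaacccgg
The searched TCF/LEF core was CTTTGAT, on both strands. The match before Wnt11 lies on the minus strand, 51 to 45 bases before the start. That core was found in 3.21% of 32851 promoter windows of the same length and in those of 2 of the 28 members, Wnt11 and Wnt5b. A Cdx motif, TTTATNG, was found in 9.81% of windows and in those of Dkk2, Wif1, Wnt2 and Wnt5b among the members. GC content was 85.2% before Wnt4, 70.8% and 56.8% before the 2 starts of Wnt11, 76.4% before Fzd5 and 59.6% before Sfrp5, where the median of all windows was 52.4%. A match is a string of letters, and its absence says nothing about binding.

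Members differed in how many groups they were detected in. The number above 3 counts in every library of a group was highest in E16 forestomach, at 35 of 45, although these were the shallowest libraries. It was 30 in E14 small intestine, 24 in E16 small intestine and 21 at E18, and 16 in the adult knockout libraries. Of the 45 members, 17 had their highest mean embryonic level in E16 forestomach, and 4 each in E12 forestomach, the libraries labelled hindstomach at E12, E14 forestomach, E16 hindstomach and the libraries with deletion at E15. Neither count was made over all genes, so neither is read as a trait of the members. E16 forestomach also had the highest summed mesenchyme, muscle and blood markers, whose part was not tested. Wnt1, Wnt10b, Wnt7a and Wnt8a were too low to be tested in any group, with no library above 0.617 CPM. Their highest values were 0.115 CPM for Wnt1, 0.595 for Wnt7a and 0.218 for Wnt8a. Dkk4 was at 0 in all libraries of E12, E14 and E16 wild type and at 2.14 and 1.81 CPM at E18. Wnt3a was above the floor in every library of E16 forestomach alone, at 2.62 and 4.44 CPM.

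**Figure D1:**
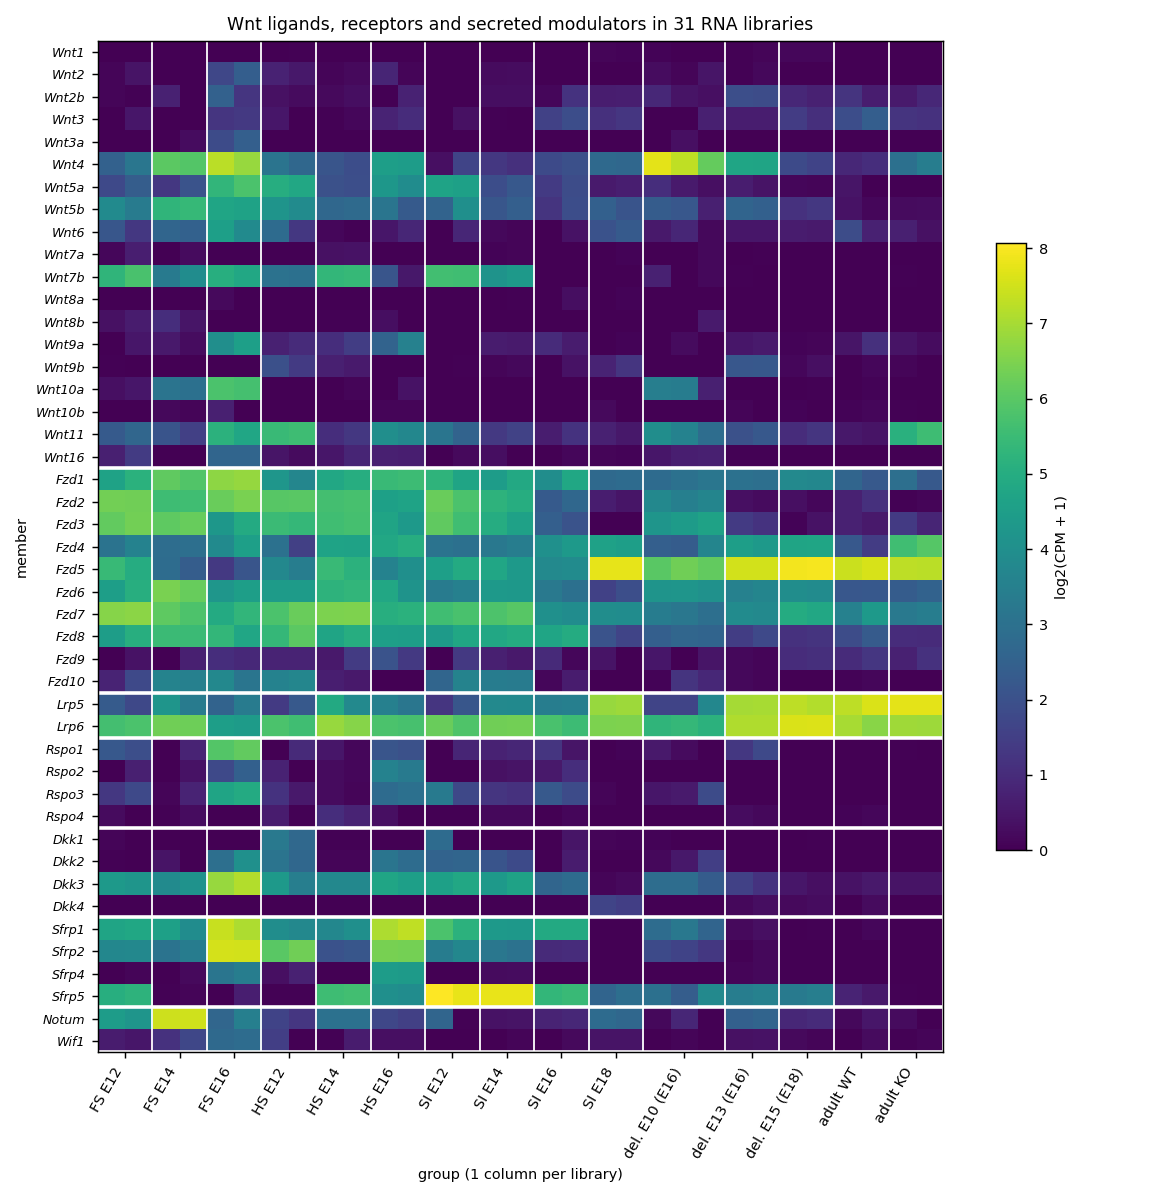
Level of the 45 members in each of the 31 RNA libraries, as log2 of CPM plus an offset. Members are in rows by class, with a column for each library, ordered by the 15 groups. E16 forestomach has the highest embryonic mean of 17 members, a count not made over all genes. The adult columns were scaled apart from the embryonic ones.

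At E14 several ligands separated the forestomach from the other organs. Wnt4, Wnt10a, Wnt6 and Wnt5b were higher there than in hindstomach and small intestine, as was the Wnt deacylase Notum, whereas the antagonist Sfrp5 and the receptor Fzd5 were lower. Mesenchyme markers summed to 117 to 127 CPM in forestomach, 117 to 128 in hindstomach and 319 to 359 in small intestine. Other lists differed between the stomach regions: the 5 pancreas markers summed to 76.9 to 79.4 CPM in forestomach and 586 to 598 in hindstomach, the 3 mesothelium markers to 6.18 to 7.53 and 49.6 to 53.1, and the 6 markers of neural crest and neurons to 9.29 to 10.4 and 30.9 to 31.8. The part of these in the members' differences was not tested. In the comparison with hindstomach, 9 members were called higher and 5 lower among the 41 tested, or 34.1%, where 8.46% of all 17239 tested genes were called (2.85% higher and 5.62% lower). Called means an edgeR adjusted p below 0.05 and a log2 fold change of at least 1 either way. The members' median log2 difference was 0.42, against -0.03 over all genes. Without forestomach replicate 1 the count was 9, and without hindstomach replicate 1 it was 8, in place of 14.

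Wnt4, a ligand needed for kidney tubule and female duct formation, stood at 64.3 and 59.4 CPM in E14 forestomach, at 3.39 and 2.74 in hindstomach and at 1.48 and 1.18 in small intestine. Both forestomach libraries lay far above all others of that stage. The log2 difference was 4.33 (SE 0.53, adjusted p = 1.17e-05) from hindstomach and 5.50 (SE 0.57, adjusted p = 6.66e-07) from small intestine. Wnt10a, a ligand of skin appendages and other stratified epithelia, was at 7.62 and 6.94 CPM in forestomach, at 0 and 0.0752 in hindstomach and at 0 in both small intestine libraries. It was at least 66.6-fold higher than in hindstomach and at least 91.5-fold higher than in small intestine. Such bounds are computed against 3 counts per library where a group lies at the floor. The Wnt10a call against hindstomach was lost without hindstomach replicate 1 (adjusted p = 0.0667). Wnt5b stood at 37.7 and 41.7 CPM in forestomach, 5.5 and 5.9 in hindstomach and 3.43 and 4.42 in small intestine, without overlap. Its log2 difference was 2.80 (SE 0.59, adjusted p = 0.00259) from hindstomach and 3.34 (SE 0.60, adjusted p = 0.000431) from small intestine. Wnt6 was at 5.22 and 4.66 CPM against 0.106 and 0.0376 in hindstomach, at least 45.2-fold higher, and that call was lost without hindstomach replicate 1 (adjusted p = 0.0592) or replicate 2 (adjusted p = 0.0984). In small intestine Wnt6 was at 0.122 and 0.0789 CPM, and that call was lost without small intestine replicate 1 (adjusted p = 0.0669) or replicate 2 (adjusted p = 0.0584). Wnt7b ran the other way in its values, at 8.77 and 14.2 CPM in forestomach against 39.5 and 41.7 in hindstomach, and was not called.

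The inhibitors differed in both directions. Notum, whose gene is itself a Wnt target, was at 174 and 176 CPM in E14 forestomach, 7.13 and 7.07 in hindstomach and 0.327 and 0.355 in small intestine. The 3 organs did not overlap. The log2 difference was 4.62 (SE 0.87, adjusted p = 0.000974) from hindstomach and 9.0 (SE 1.09, adjusted p = 5.36e-06) from small intestine. Sfrp5 showed the reverse order: 0.0428 and 0.0723 CPM in forestomach, 46.7 and 48.8 in hindstomach and 223 and 224 in small intestine. Forestomach was at the floor, at least 403-fold lower than hindstomach and at least 1890-fold lower than small intestine. Hindstomach was lower than small intestine by a log2 difference of -2.23 (SE 0.30, adjusted p = 4.94e-05). Sfrp1, of the same family, stood at 23 and 14.1 CPM in forestomach, 12.4 and 15.3 in hindstomach and 19.6 and 18.9 in small intestine, and was called in none of the 3 comparisons.

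Among receptors at E14, Fzd5 was at 6.16 and 4.23 CPM in forestomach, 42.8 and 35.2 in hindstomach and 26.2 and 19.5 in small intestine. Forestomach was lowest, with a log2 difference of -2.91 (SE 0.25, adjusted p = 1.57e-07) from hindstomach and -2.14 (SE 0.25, adjusted p = 2.97e-06) from small intestine. Fzd6, a receptor of planar cell polarity, was at 86.6 and 72.3 CPM in forestomach, 36 and 38.4 in hindstomach and 19.6 and 18.5 in small intestine. It was called against small intestine (log2 difference 2.06, SE 0.24, adjusted p = 3.32e-06). Against hindstomach it was also called, and that call was lost without forestomach replicate 1 (adjusted p = 0.0574) or hindstomach replicate 1 (adjusted p = 0.0514). Fzd10 stood at 11.1 and 10.5 CPM in forestomach and 9.47 and 9.27 in small intestine, and at 0.6 and 0.451 in hindstomach. Hindstomach was the low organ, with a log2 difference of 4.35 (SE 0.91, adjusted p = 0.00368) for forestomach over hindstomach, and the call was lost without hindstomach replicate 2 (adjusted p = 0.0661). Lrp6 ran from 77.3 to 112 CPM over the 6 E14 libraries, and Lrp5 from 9.22 to 29.1, and neither was called between organs.

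Forestomach against small intestine at E14 gave 9 members higher and 3 lower of 41 tested, where 11.9% of all genes were called (4.66% higher and 7.29% lower). Hindstomach against small intestine gave 1 higher, Notum, and 4 lower, Sfrp5, Sfrp2, Fzd10 and Dkk2, where 6.83% of all genes were called (3.49% higher and 3.35% lower). Of these 5, Sfrp5 and Sfrp2 kept the call without each library in turn. The count was 3 without hindstomach replicate 1, hindstomach replicate 2 or small intestine replicate 1. It was 8 in DESeq2 and 12 when only these 4 libraries were fitted.

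**Figure D2:**
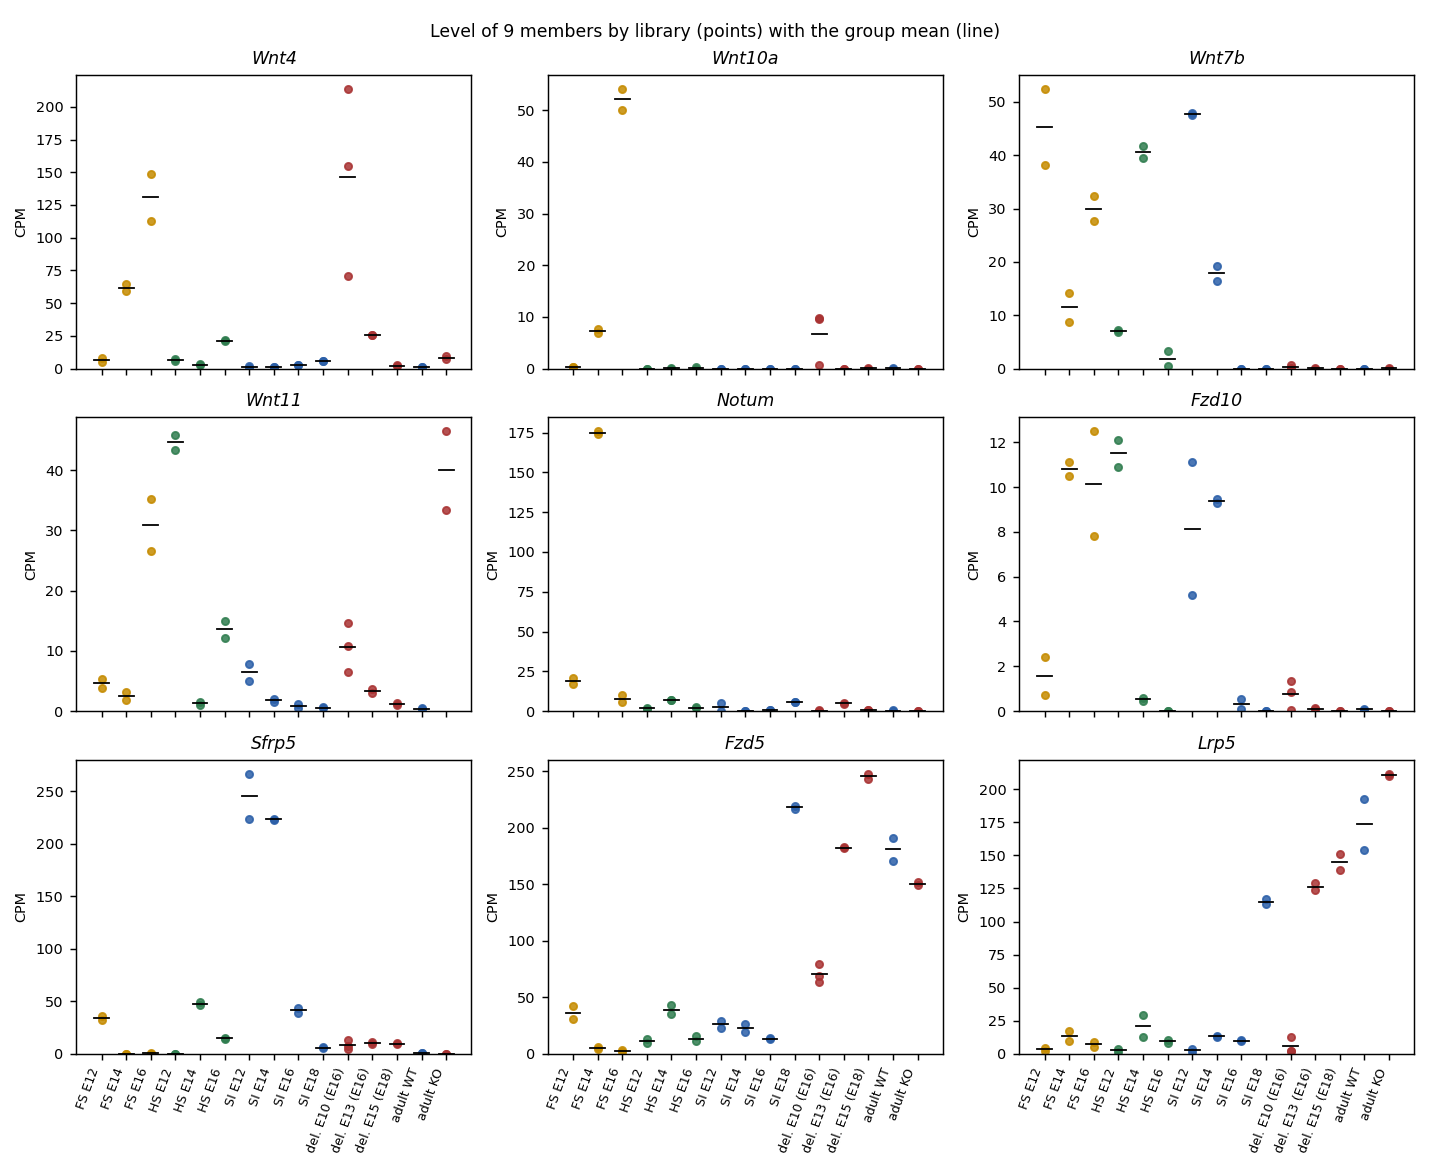
Level in CPM, on a linear axis, of Wnt4, Wnt10a, Wnt7b, Wnt11, Notum, Fzd10, Sfrp5, Fzd5 and Lrp5. There is 1 point per library and a line at each group mean, with groups along the horizontal axis. Notum reaches 174 and 176 CPM in E14 forestomach, Sfrp5 is at 0.612 CPM or less in forestomach from E14, and Fzd5 and Lrp5 are highest at E18, in the libraries with deletion at E13 or E15, and in adult ileum.

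At E12 the organs already differed in Sfrp5 and Wnt5a. Mesenchyme markers summed to 134 to 139 CPM in E12 forestomach and 284 to 302 in small intestine, and their part was not tested. Forestomach against small intestine, the comparison that does not use the libraries labelled hindstomach, gave 5 members higher and 3 lower of 41 tested, where 10.1% of all genes were called (5.37% higher and 4.72% lower). Sfrp5 was at 32 and 36 CPM in forestomach and at 267 and 224 in small intestine, a log2 difference of -2.85 (SE 0.31, adjusted p = 3.18e-06) with no overlap. Wnt5a, a ligand of the non-canonical branch that is needed for the gut to lengthen, was at 2.4 and 4.22 CPM in forestomach and 24.6 and 22.9 in small intestine. The difference was -2.84 (SE 0.44, adjusted p = 0.000209). Fzd6 was at 22.2 and 32.2 CPM against 9.2 and 10.3 (log2 difference 1.48, SE 0.24, adjusted p = 0.000289). The other 5 calls, Notum, Wnt4, Wnt2, Wnt9a and Dkk2, were each lost without at least 1 library. The count fell to 3 without forestomach replicate 2, and to 1 when only these 4 libraries were fitted.

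The libraries labelled hindstomach at E12 lacked Sfrp5, at 0.0308 and 0.0299 CPM, at least 373-fold lower than forestomach and at least 2700-fold lower than small intestine. In hindstomach at E14 it was at 46.7 and 48.8 CPM. Wnt11, a ligand of the non-canonical branch, was at 43.4 and 45.9 CPM in these libraries, against 3.88 and 5.3 in forestomach and 7.85 and 4.97 in small intestine of E12, and against 1.06 and 1.47 in hindstomach of E14. Dkk1 was at 8.64 and 5.68 CPM there and at the floor in 10 of the 13 embryonic groups. Forestomach against these libraries gave 4 members higher and 7 lower (7.11% of all genes called, 2.83% higher and 4.28% lower), and these libraries against small intestine gave 10 higher and 5 lower (9.28% of all genes called, 5.60% higher and 3.67% lower, and 4 members called when only these 4 libraries were fitted). With E14 libraries on both sides, the comparisons given above, the counts were 9 and 5, and 1 and 4. Neither Wnt11 nor Dkk1 was called between hindstomach and another organ at E14.

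At E16 more members were called higher than lower in each stomach region against small intestine. Forestomach against small intestine gave 26 members higher and 3 lower of 41 tested, where 35.0% of all genes were called (18.6% higher and 16.4% lower), and a members' median log2 difference of 3.09 against 0 over all genes. Hindstomach against small intestine gave 17 higher and 2 lower (25.7% of all genes called, 17.5% higher and 8.10% lower), with medians of 1.66 and 0.18. Forestomach against hindstomach gave 15 higher and 3 lower (20.1% of all genes called, 6.27% higher and 13.8% lower), with medians of 1.15 and -0.13. In that comparison the share of called genes that were higher was 31.2% with TMM scaling and 43.5% with RLE scaling, which shifted the median of all genes by 0.15, and the members' split was 16 higher and 3 lower with RLE. The summed mesenchyme, muscle and blood markers were far higher in E16 forestomach than in the other organs, and their part in these counts was not tested. With E14 libraries in place of E16, the counts given above were 12 against small intestine for forestomach and 5 for hindstomach.

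Secreted proteins of the Sfrp and Dkk families were among the widest E16 differences. Sfrp2 was at 186 and 182 CPM in forestomach, 83.3 and 82 in hindstomach and 0.956 and 1.04 in small intestine, in that order without overlap. The log2 difference from small intestine was 7.52 (SE 0.29, adjusted p = 2.58e-12) for forestomach and 6.37 (SE 0.28, adjusted p = 5.9e-11) for hindstomach. Sfrp1 was at 165 and 133 CPM in forestomach, 135 and 155 in hindstomach and 28.6 and 28.8 in small intestine, so the stomach regions overlapped and both lay above the intestine. Sfrp4 was at 7.72 and 9.64 CPM in forestomach and 21 and 20.2 in hindstomach and was listed at 0 in small intestine, which it exceeded by at least 55.2-fold in forestomach and at least 131-fold in hindstomach. Dkk3 was at 112 and 139 CPM in forestomach, 25.5 and 22.5 in hindstomach and 5.23 and 6.06 in small intestine. Sfrp5 again ran the other way, at 0 and 0.612 CPM in forestomach, 15.3 and 14.3 in hindstomach and 39.1 and 43.7 in small intestine. Its log2 difference was -7.05 (SE 0.55, adjusted p = 3.67e-09) between forestomach and small intestine and -1.48 (SE 0.30, adjusted p = 0.000738) between hindstomach and small intestine.

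Of the R-spondins, the ligands of the Lgr receptors, Rspo1 and Rspo3 had their highest levels in E16 forestomach and Rspo2 in E16 hindstomach. Rspo1 was at 59.3 and 69 CPM in forestomach, 3.33 and 3.04 in hindstomach and 1.36 and 0.382 in small intestine. Its log2 difference from small intestine was 6.19 (SE 1.5, adjusted p = 0.00227). Rspo3 was at 25.2 and 29.4 CPM in forestomach, 6.03 and 6.96 in hindstomach and 3.77 and 2.62 in small intestine, and its call for forestomach against small intestine was lost without small intestine replicate 1 (adjusted p = 0.0555) or replicate 2 (adjusted p = 0.0896). Rspo2 was highest in hindstomach, at 11 and 8.96 CPM, against 2.47 and 4.59 in forestomach, and was not called between organs. Outside the E16 stomach, Rspo3 was above the floor in every library of 6 other embryonic groups and stood at 2.33 to 8.76 CPM in E12 small intestine, and Rspo1 was at 2.85 to 3.63 in E12 forestomach. Rspo4 was highest in E14 hindstomach, at 0.752 to 1.09 CPM, and at 0 in E16 forestomach.

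Ligands at E16 kept the E14 order in several cases. Wnt4 was at 149 and 113 CPM in forestomach, 21.8 and 21 in hindstomach and 2.52 and 2.89 in small intestine. The log2 difference was 2.61 (SE 0.48, adjusted p = 0.000333) between the stomach regions and 5.60 (SE 0.57, adjusted p = 1.47e-07) between forestomach and small intestine. Wnt10a was at 54.2 and 50.1 CPM in forestomach, 0 and 0.304 in hindstomach and 0 in small intestine, a log2 difference of 8.36 (SE 1.41, adjusted p = 0.000509) from hindstomach and at least 331-fold higher than small intestine. Wnt7b, a ligand made by embryonic epithelia, was at 32.4 and 27.6 CPM in forestomach, 3.33 and 0.435 in hindstomach and 0 in small intestine, at least 191-fold higher than the last. Wnt5a was at 38.7 and 53.9 CPM in forestomach, 18.3 and 14.1 in hindstomach and 1.56 and 2.67 in small intestine, and Wnt11 at 35.2 and 26.5, 14.9 and 12.2, and 0.553 and 1.26. For both, each stomach region was called above small intestine, and the calls between the stomach regions were lost without 1 library: for Wnt5a without forestomach replicate 2 (adjusted p = 0.0846) or hindstomach replicate 2 (adjusted p = 0.09), for Wnt11 without forestomach replicate 1 (adjusted p = 0.187), hindstomach replicate 1 (adjusted p = 0.087) or hindstomach replicate 2 (adjusted p = 0.17). Wnt9a was at 15 and 22.7 CPM in forestomach and 1.01 and 0.546 in small intestine, a log2 difference of 4.59 (SE 1.04, adjusted p = 0.00137).

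Receptors at E16 went in both directions. Fzd2 was at 73 and 85.1 CPM in E16 forestomach, 23.1 and 24.6 in hindstomach and 3.82 and 5.51 in small intestine, with a log2 difference of 4.08 (SE 0.22, adjusted p = 2.86e-11) between forestomach and small intestine. Fzd10 was at 12.5 and 7.81 CPM in forestomach and at 0 in both hindstomach libraries, at least 77-fold higher. Fzd5 and the co-receptor Lrp6 were the receptors lower in forestomach. Fzd5 was at 1.54 and 3.37 CPM against 11 and 15.3 in hindstomach and 12.9 and 13.7 in small intestine, and its log2 difference from small intestine was -2.43 (SE 0.32, adjusted p = 4.39e-06). Lrp6 was at 21.9 and 20.7 CPM against 54.2 and 51.4 in hindstomach and 52.6 and 45.6 in small intestine, with a log2 difference of -1.31 (SE 0.14, adjusted p = 8.11e-07) from hindstomach.

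**Figure D3:**
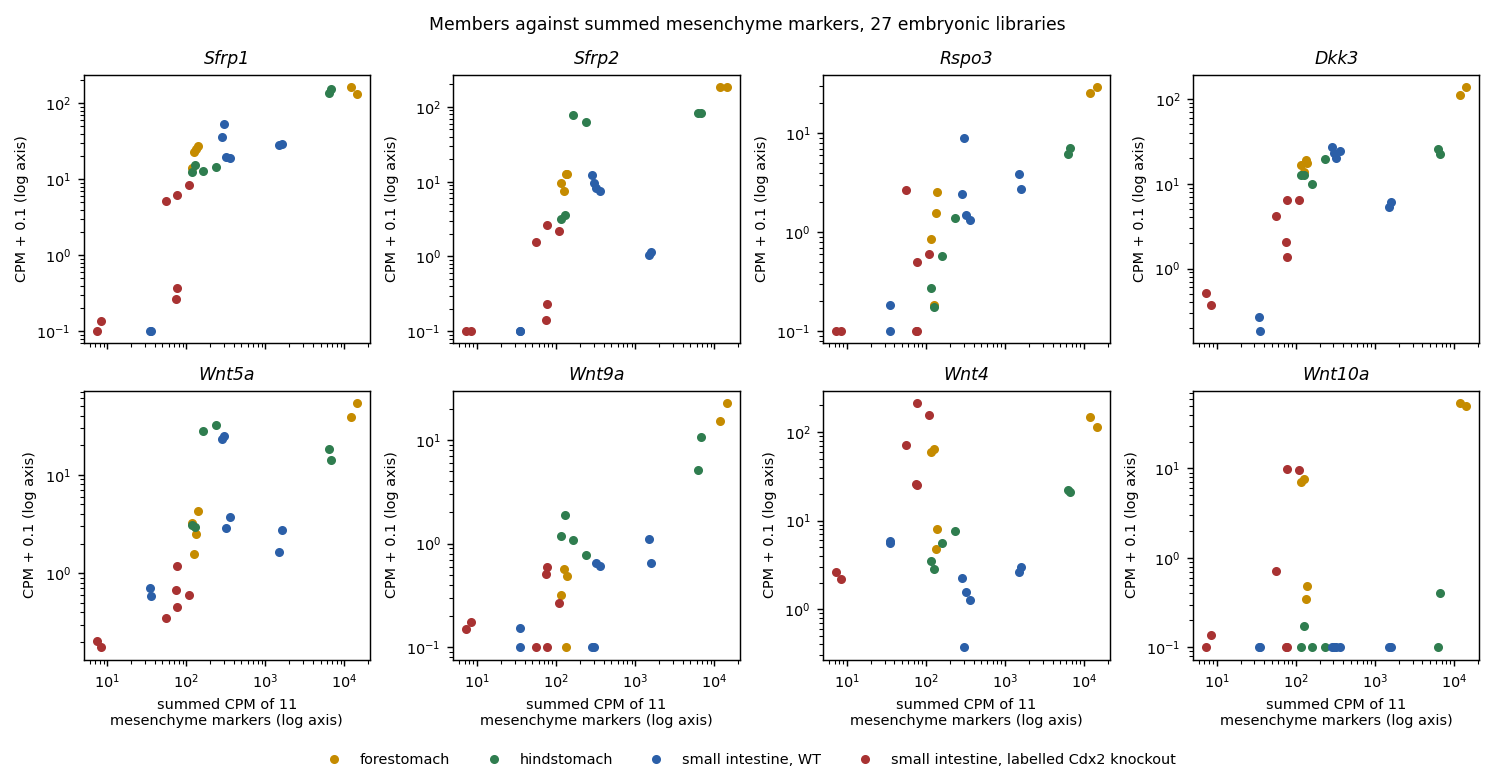
Level of 8 members in each of the 27 embryonic libraries (vertical axis, CPM plus an offset) against the summed CPM of 11 mesenchyme markers in the same library (horizontal axis), both on log axes, with 1 point per library. The E16 forestomach libraries lie at 12000 to 14400 on the horizontal axis, where Sfrp2, Rspo3, Dkk3 and Wnt9a have their highest levels. Wnt4 is also high in the libraries with deletion at E10, where the marker sum is 56.2 to 109 CPM.

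The plot against mesenchyme markers shows patterns that overlap between members. Sfrp2, Sfrp1, Rspo3, Dkk3 and Wnt9a were highest in the E16 stomach libraries with the most mesenchyme RNA, and the part of that RNA in their levels was not tested. Wnt4 and Wnt10a were called in forestomach at E14 as well. Wnt5a was also present at E12, at 24.6 and 22.9 CPM in small intestine with a marker sum of 284 to 302. Sfrp1, at 54.1 and 35.5 CPM, and Dkk3, at 22.8 and 27.3, were present in those libraries too. In E12 forestomach, with a lower marker sum of 134 to 139, Wnt5a was at 2.4 and 4.22 CPM. Sfrp1 stood there at 25.3 and 27.1 and Dkk3 at 19.1 and 17.6. Sfrp2 was at 62.5 and 78.7 CPM in the libraries labelled hindstomach at E12, with a marker sum of 162 to 236. Wnt5a and Wnt10a also had their highest embryonic mean in E16 forestomach.

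Over time in the forestomach, 18 members were called higher and 5 lower at E16 than at E12, where 38.1% of all genes were called (21.6% higher and 16.5% lower). Median log2 changes were 2.51 for the members and 0 for all genes. RLE scaling, which shifted the median of all genes by 0.19, gave 21 members higher and 5 lower, and the share of called genes that rose went from 56.6% to 68.6%. Of the 23 calls, 17 held without each library in turn, and the 6 lost were those of Fzd10, Rspo1, Wnt2, Wnt2b, Wnt3a and Wnt6. With E14 in place of E16 the count was 13, with 8 higher and 5 lower (12.7% of all genes called, 7.58% higher and 5.13% lower). Epithelial markers fell and mesenchyme markers rose between these stages, and their part was not tested.

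Wnt4 went from 4.72 and 7.97 CPM at E12 to 64.3 and 59.4 at E14 and 149 and 113 at E16. It was higher at E16 than at E12 by 4.36 on the log2 scale (SE 0.52, adjusted p = 1.26e-06), and the step from E12 to E14 alone was 3.28 (adjusted p = 0.000102). Wnt10a rose from 0.247 and 0.388 CPM to 7.62 and 6.94 and then to 54.2 and 50.1, a log2 change of 7.32 (SE 1.31, adjusted p = 0.000406) from E12 to E16. Notum had its highest level at E14, going from 20.9 and 17.3 CPM to 174 and 176 and back to 5.4 and 10.1. Its steps were 3.19 (adjusted p = 0.00687) and then -4.49 (adjusted p = 0.000309) on the log2 scale. Fzd6 also stood highest at E14, at 22.2 and 32.2 CPM, then 86.6 and 72.3, then 17.9 to 22.2, with steps of 1.54 (adjusted p = 0.00011) and -1.99 (adjusted p = 1.95e-06). Wnt5b went from 9.21 to 13.5 CPM to 37.7 and 41.7 and then 24.0 to 25.9, and its rise was called (1.81, adjusted p = 0.0238) while the later step was not (-0.67, adjusted p = 0.333). Lrp6 was at 49.3 to 54.1, 77.3 to 77.9 and 20.7 to 21.9 CPM, and there the later step alone was called (-1.87, adjusted p = 3.64e-09). These tests were added after the values were seen. Sfrp5 fell by 6.77 (SE 0.55, adjusted p = 9.02e-09) from E12 to E16, and the drop had already reached the floor at E14. Fzd5 went from 42.1 and 30.7 CPM to 6.16 and 4.23 and to 1.54 and 3.37, a log2 change of -3.88 (SE 0.31, adjusted p = 8.41e-09).

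In hindstomach the change from E14 to E16 rests on no library that went against its label: 9 members were called higher and 8 lower of 41 tested, or 41.5%, where 22.0% of all genes were called (16.5% higher and 5.50% lower). Sfrp2 rose from 3.07 and 3.46 CPM to 83.3 and 82, a log2 change of 4.66 (adjusted p = 7.62e-10). Sfrp1 rose by 3.39 (adjusted p = 6.72e-08), Wnt11 by 3.42 (adjusted p = 1.23e-05), Wnt4 by 2.80 (adjusted p = 0.000326) and Wnt5a by 2.48 (adjusted p = 0.00027). Wnt7b went from 39.5 and 41.7 CPM to 3.33 and 0.435, a log2 change of -4.43 (adjusted p = 0.000132), and Sfrp5 changed by -1.69 (adjusted p = 0.000293). Mesenchyme markers rose from 117 to 128 CPM to 6330 to 6740 over the same step. Muscle markers rose from 14.6 to 15.1 CPM to 1810 to 1830, and blood markers from 11.8 to 12.5 to 1020 to 1460. Markers of neural crest and neurons rose from 30.9 to 31.8 CPM to 669 to 670. The 5 immune markers rose from 5.86 to 7.33 CPM to 623 to 788. The part of these lists in the members' changes was not tested. From the libraries labelled E12 to E16, 10 members were called higher and 8 lower, where 33.7% of all genes were called (23.2% higher and 10.5% lower). That start reversed 2 of the changes: Sfrp5 was at least 163-fold higher at E16, and Wnt11 changed by -1.72 (SE 0.41, adjusted p = 0.00185).

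In small intestine, Wnt7b, Fzd2, Fzd3, Wnt5a and Sfrp5 were lower at E16 than at E12. From E12 to E16, 5 members were called higher and 12 lower of 41 tested, where 40.0% of all genes were called (22.4% higher and 17.6% lower), so the members' share of 41.5% was near the background. The count was 10 when only these 4 libraries were fitted. Of the 5 called higher, Lrp5, Fzd4, Rspo2 and Wnt2b lost the call without some library. Wnt7b went from 48 and 47.6 CPM at E12 to 16.5 and 19.2 at E14 and 0 at E16, at least 304-fold lower than at E12. Fzd2 went from 73.3 and 54.6 CPM to 36 and 31.7 and to 3.82 and 5.51, a log2 change of -3.78 (SE 0.22, adjusted p = 8.16e-11) from E12 to E16, and Fzd3 from 67.2 and 46.9 to 31.1 and 23.3 and to 4.48 and 3.17 (-3.89, SE 0.32, adjusted p = 1.49e-08). Wnt5a was at 24.6 and 22.9 CPM at E12 and already at 2.76 and 3.63 at E14. Sfrp5 was at 267 and 224 CPM at E12, 223 and 224 at E14 and 39.1 and 43.7 at E16, so its drop fell between E14 and E16 in these values. The marker sum for mesenchyme rose over the same stages, from 284 to 302 CPM at E12 to 1510 to 1610 at E16, and its part was not tested.

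From E16 to E18, 5 members were called higher and 13 lower, where 42.1% of all genes were called (20.1% higher and 22.1% lower), so the members' share of 43.9% was also near the background. Isolation also changed here, from sorted cells to villi released with EDTA, and stage and method cannot be told apart. Fzd5 went from 12.9 and 13.7 CPM to 217 and 219, a log2 change of 4.04 (SE 0.26, adjusted p = 2.2e-10). Lrp5 went from 9.76 and 10.1 to 113 and 117 (3.53, SE 0.64, adjusted p = 0.000107). Wnt6 went from 0 and 0.328 to 3.12 and 3.9 CPM and lost the call without E16 small intestine replicate 1 (adjusted p = 0.0694). In the other direction, Fzd8 went from 25.8 and 30.2 CPM to 3.2 and 2.14 (-3.41, SE 0.31, adjusted p = 2.32e-08), and Fzd3 from 4.48 and 3.17 to 0 in both. Sfrp1 went from 28.6 and 28.8 CPM to 0 in both, at least 140-fold lower, Dkk3 was at least 27.5-fold lower, and Rspo3 at least 15.5-fold lower. Mesenchyme markers fell from 1510 to 1610 CPM to 34.7 to 35.4, and their part in the drop of Sfrp1, Dkk3 and Rspo3 was not tested.

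The difference between organs itself changed from E12 to E16 for many members. The change of forestomach minus that of small intestine was called for 14 members in the positive and 2 in the negative direction (30.8% of all genes called, 14.8% positive and 16.1% negative). Forestomach minus hindstomach gave 11 and 3 (20.2% of all genes called, 7.38% positive and 12.9% negative), and hindstomach minus small intestine 11 and 3 (20.3% of all genes called, 12.5% positive and 7.85% negative). The last 2 use the libraries labelled hindstomach at E12. With E14 in place of E12, forestomach minus hindstomach was called for 7 members in the positive and 1 in the negative direction (11.8% of all genes called, 4.35% positive and 7.44% negative). Hindstomach minus small intestine was called for 12 and 1 (13.1% of all genes called, 9.16% positive and 3.92% negative). The share of called genes in the positive direction for forestomach minus hindstomach was 36.5% under TMM scaling and 48% under RLE, and the members split 11 and 3 under both.

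In the small intestine libraries with Cdx2 deletion at E10, Wnt4, Wnt11 and Wnt10a were higher than in wild type of E16, and Sfrp5, Sfrp1 and Fzd8 were lower. Of the 41 members tested, 10 were called higher and 9 lower, where 51.5% of all genes were called (23.9% higher and 27.6% lower), so the members' share of 46.3% was near the background. The members' median log2 difference was -0.38, and that of all genes -0.1. Stomach markers moved in these libraries: the 6 hindstomach markers summed to 3900 to 10200 CPM against 5.53 to 5.62 in wild type, and the 4 forestomach markers (Krt5, Krt14, Trp63, Sox2) to 92.3 to 294 against 0 to 1.36. The 5 intestine markers (Cdx1, Cdx2, Vil1, Fabp2, Muc2) summed to 935 to 1670 CPM against 2590 to 2600. Mesenchyme markers summed to 56.2 to 109 CPM against 1510 to 1610. The part of these cell types in the members' changes was not tested.

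Wnt4 was at 214, 155 and 70.9 CPM after deletion at E10 and at 2.52 and 2.89 in wild type, with all 3 libraries far above. The log2 difference was 5.76 (SE 0.56, adjusted p = 2.94e-08). Wnt11 was at 14.6, 10.8 and 6.42 CPM against 0.553 and 1.26 (3.56, SE 0.45, adjusted p = 1.15e-06). Wnt10a, which was listed at 0 in all wild-type small intestine libraries, was at 9.88, 9.56 and 0.618 CPM, at least 42.5-fold higher, with the third library far below the others. For comparison, Wnt10a was at 54.2 and 50.1 CPM in E16 forestomach and at 0 and 0.304 in E16 hindstomach. Wnt7b and Wnt2 were called higher on 0.668 CPM or less, and Wnt3, Wnt9a and Rspo2 were called lower, and each of these 5 calls was lost without some library. Wnt5a, at 1.07, 0.503 and 0.247 CPM against 1.56 and 2.67, lost its call without wild-type replicate 2 (adjusted p = 0.0639).

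Among receptors, Fzd5 was at 63.1, 79.5 and 68.4 CPM after deletion at E10 against 12.9 and 13.7, a log2 difference of 2.40 (SE 0.23, adjusted p = 2.71e-08). Fzd3 was at 17.6, 20.4 and 24.3 CPM against 4.48 and 3.17 (2.43, SE 0.29, adjusted p = 7.97e-07), and Fzd2 at 12.5, 10.2 and 11.7 against 3.82 and 5.51 (1.30, SE 0.20, adjusted p = 9.01e-06). Fzd8 was the receptor with the largest drop, at 4.47, 5.28 and 5.06 CPM against 25.8 and 30.2 (-2.50, SE 0.26, adjusted p = 5.61e-08). Sfrp5 was at 6.81, 4.19 and 13 CPM against 39.1 and 43.7, a difference of -2.41 (SE 0.28, adjusted p = 3.98e-07). Sfrp1 was at 6.14, 8.39 and 5.06 against 28.6 and 28.8. Lrp5 was at 2.14, 2.18 and 12.4 CPM against 9.76 and 10.1, so the groups overlapped, and it was not called.

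After deletion at E13, 7 members were called higher and 11 lower, where 39.5% of all genes were called (18.7% higher and 20.8% lower), so the members' share of 43.9% was near the background. This comparison shares its wild-type libraries with the one before. Wnt4 was at 26 and 25.3 CPM against 2.52 and 2.89 (3.25, SE 0.53, adjusted p = 3.82e-05), and Wnt11 at 2.98 and 3.7 against 0.553 and 1.26 (1.89, SE 0.46, adjusted p = 0.00186). Wnt10a was at 0 in both libraries. Wnt9b, at 3.55 and 3.66 CPM against 0 and 0.328, lost its call without wild-type replicate 1 (adjusted p = 0.0547). Hindstomach markers summed to 3120 to 3220 CPM in these libraries, and forestomach markers to 1.49 to 1.69. The intestine markers were higher too, at 6960 to 7050 CPM against 2590 to 2600 in wild type of E16. At E18 they summed to 16200 to 16300. The part of these lists in the members' changes was not tested.

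The receptors Fzd5 and Lrp5 were near their E18 levels in the libraries with deletion at E13. Fzd5 was at 182 and 183 CPM, against 12.9 and 13.7 in wild type of E16 and 217 and 219 at E18. Lrp5 was at 124 and 129, against 9.76 and 10.1 and 113 and 117. Against E16 the log2 differences were 3.78 (SE 0.26, adjusted p = 5.17e-10) for Fzd5 and 3.67 (SE 0.64, adjusted p = 8.26e-05) for Lrp5, and against E18 they were -0.26 (adjusted p = 0.467) and 0.13 (adjusted p = 0.935). Fzd8, at 1.74 and 2.41 CPM, also differed from E16 (-3.76, SE 0.31, adjusted p = 7.08e-09) and was not called against E18 (-0.35, adjusted p = 0.485). Sfrp1 was at 0.165 and 0.268 CPM against 28.6 and 28.8 at E16 (-7.03, SE 0.39, adjusted p = 8.69e-11) and 0 at E18, and Rspo3 at 0 in both libraries, at least 24.8-fold lower than at E16. Mesenchyme markers summed to 74.6 to 77.2 CPM, against 1510 to 1610 at E16 and 34.7 to 35.4 at E18, and their part was not tested.

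Set against E18 wild type in place of E16, an alternative added after the data were seen, the deletion at E13 had 7 members higher and 0 lower in the edgeR fit, where 16.1% of all genes were called (8.19% higher and 7.91% lower), so the members' share of 17.1% was near the background. Of the 7, those also called higher against E16 were Wnt4 (2.18, adjusted p = 0.00286) and Wnt11 (2.63, adjusted p = 0.000572). Dkk3, Fzd3 and Sfrp1, also among the 7, were called lower against E16 and were at the floor in wild type of E18. Their direction therefore depended on the wild-type stage used. The deletion at E10 against E18 had Wnt4 higher by 4.70 (adjusted p = 1.41e-07) and Wnt11 by 4.30 (adjusted p = 1.9e-07), and Fzd5 turned to -1.63 (adjusted p = 6.42e-07).

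**Figure D4:**
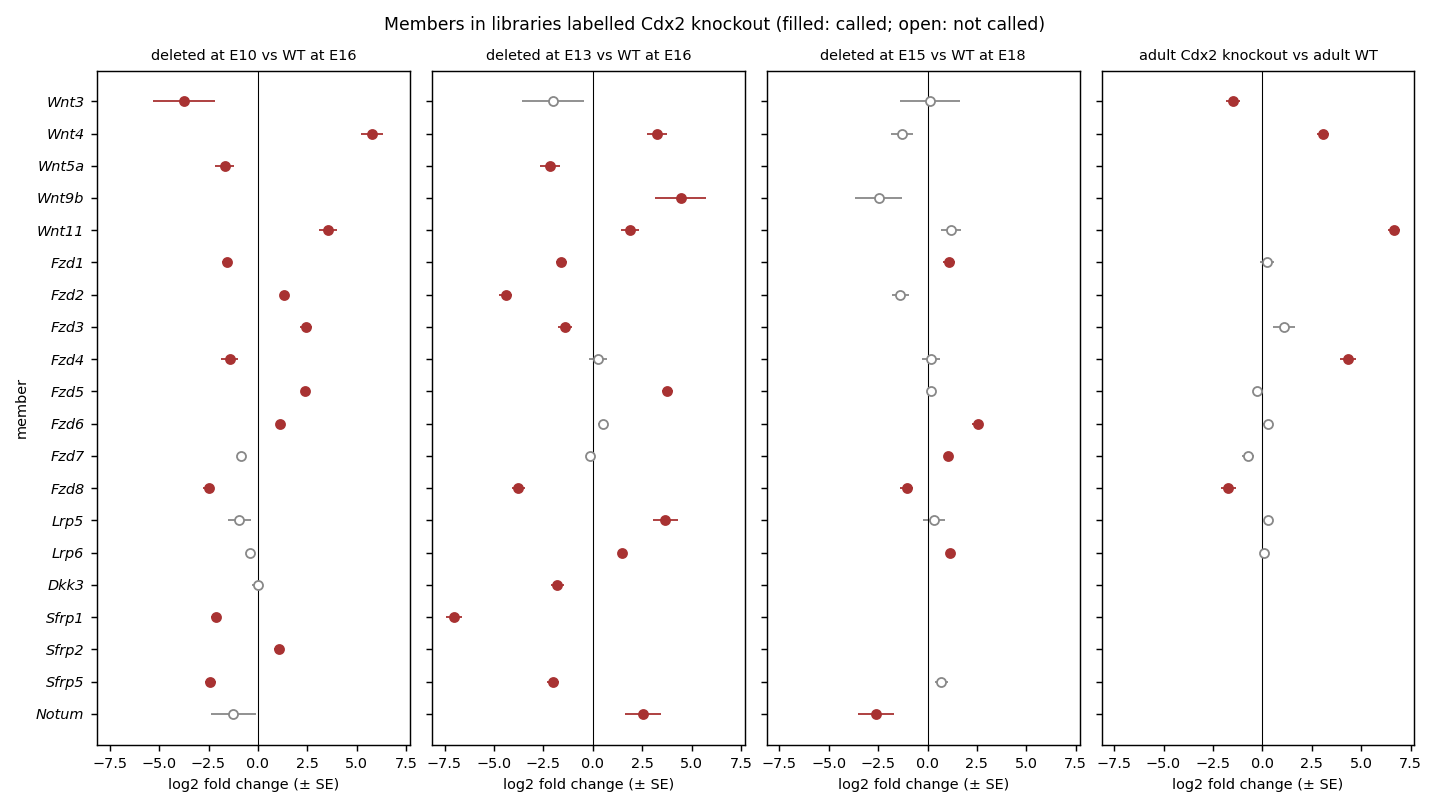
Log2 difference (horizontal axis, with bars of 1 SE) of members between libraries labelled Cdx2 knockout and their wild type, in 4 panels for deletion at E10, E13, E15 and in the adult. Filled points were called by edgeR and open points were not, and pairs with a group at 3 counts or fewer in every library are left out. Wnt4 and Wnt11 lie to the right and are filled for deletion at E10, at E13 and in the adult, and are open for deletion at E15.

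After deletion at E15, 5 members were called higher and 3 lower, where 17.5% of all genes were called (7.79% higher and 9.70% lower), so the members' share of 19.5% was near the background. Several marker lists moved in this comparison. The proliferation markers Mki67 and Top2a summed to 727 to 798 CPM in the knockout libraries against 270 to 273 in wild type, and the 6 hindstomach markers to 34.7 to 37.6 against 0.384 to 0.493. The 5 immune markers summed to 10.3 to 11.9 CPM against 209 to 211, and mesenchyme markers to 7.34 to 8.45 against 34.7 to 35.4. Intestine markers summed to 9210 to 9220 CPM against 16200 to 16300. The part of these in the members' changes was not tested. The count was 4 or 5 without each of the 4 libraries in turn, and only Fzd6 and Lrp6 kept the call in all of these. Fzd6 was at 14.5 and 13.9 CPM against 1.97 and 2.85 in wild type of E18, a log2 difference of 2.54 (SE 0.27, adjusted p = 7.78e-07). Lrp6 was at 193 and 200 CPM against 87 and 90.9 (1.14, SE 0.13, adjusted p = 2.3e-06). Notum was at 0.879 and 0.994 CPM against 6 and 5.49 (-2.60, SE 0.90, adjusted p = 0.0344), with no overlap, and its adjusted p without 1 library was between 0.0917 and 0.162. Wnt4, at 2.53 and 2.1 against 5.83 and 5.49, and Wnt11, at 1.03 and 1.38 against 0.657 and 0.439, were not called. Fzd5 was at 243 and 248 CPM against 217 and 219, and was not called.

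In adult ileum, where 16 members could be tested, 3 were called higher and 3 lower, and 20.5% of all 12444 tested genes were called (8.42% higher and 12% lower). Wnt11 was at 33.4 and 46.5 CPM in the libraries labelled knockout and at 0.437 and 0.34 in their controls, a log2 difference of 6.66 (SE 0.31, adjusted p = 0.00107). Wnt4 was at 6.95 and 9.63 CPM against 0.875 and 1.08 (3.07, SE 0.32, adjusted p = 0.00509). Fzd4, a receptor of blood vessel growth that also binds norrin, was at 47.7 and 61 against 3.69 and 1.7 (4.34, SE 0.39, adjusted p = 0.00393). The 3 called higher kept the call without each library in turn, and the 3 called lower, Wnt3, Fzd8 and Fzd2, did not. Without knockout replicate 1, knockout replicate 2 or control replicate 2 the count was 3. Wnt3, the ligand of Paneth cells, was at 1.32 and 1.21 CPM against 2.75 and 4.36, and its adjusted p without 1 library was between 0.0501 and 0.155. Mesenchyme markers summed to 3.72 to 3.99 CPM in the knockout libraries and 12.9 to 15.2 in controls, and immune markers to 4.28 to 5.01 and 22.6 to 49.0. Intestine markers summed to 7540 to 8080 CPM in the knockout libraries and 13200 to 14600 in controls. Other lists were higher in the knockout libraries. The neural crest and neuron markers summed to 225 to 329 CPM against 5.44 to 11.2, nearly all of it from Ret. Hindstomach markers summed to 5.21 to 11.6 CPM against 0 to 0.125, pancreas markers to 17.6 to 17.8 against 3.63 to 4.0, and the mesothelium markers to 4.43 to 5.35, all from Msln, against 0. The part of these in the members' changes was not tested. Fzd5 was at 152 and 149 CPM against 171 and 191 and Lrp5 at 212 and 210 against 154 and 193, and neither was called.

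Other genes of the pathway were read from a list of 54. In E14 forestomach against hindstomach, 11 were called higher and 3 lower, or 25.9%, where the share of all genes was 8.46%. Axin2, a feedback inhibitor and common readout of beta-catenin signalling, was at 19.2 and 17 CPM in forestomach and 4.02 and 4.29 in hindstomach (2.12, SE 0.50, adjusted p = 0.00731). Sp5, another direct target, was at 53.4 and 54.9 against 4.06 and 4.36 (3.68, SE 0.32, adjusted p = 1.31e-07), and Rnf43, a ligase that removes Frizzleds, at 162 and 149 against 40.3 and 35.2. These were the libraries in which Notum stood at 174 and 176 CPM. Lgr5, the R-spondin receptor of stem cells, was not called there (-0.82, SE 0.32, adjusted p = 0.125).

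In the libraries with deletion at E13, 16 of the 54 were called higher and 17 lower, or 61.1%, where the share of all genes was 39.5%. Axin2 was at 44.7 and 50.2 CPM there, 3.07 and 2.57 in wild type of E16 and 39.9 and 39.2 at E18. Sp5 was at 48.8 and 52.2, 0.101 and 0.437, and 30.3 and 28.3 CPM in the same order. Against E18 the log2 differences were 0.26 (SE 0.47, adjusted p = 0.765) for Axin2 and 0.79 (SE 0.28, adjusted p = 0.049) for Sp5, whose groups did not overlap and whose difference was under the fold a call needed. After deletion at E10, 10 were called higher and 20 lower, and this share of 55.6% was near the 51.5% of all genes. Sp5 was higher by 4.16 (SE 0.39, adjusted p = 1.94e-08), Rnf43 was lower (-1.48, SE 0.20, adjusted p = 1.99e-06), and Axin2 was not called (-1.02, SE 0.53, adjusted p = 0.102). After deletion at E15, 12 were called higher and 3 lower, or 27.8%, where the share of all genes was 17.5%. In the adult 3 were higher and 4 lower of 40 tested, and this share of 17.5% was near the 20.5% of all genes.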

How the data were processed

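The authors deposited RNA-seq values as raw counts in a table of gene symbols by library, with no normalization. The submitters' processing notes name Bowtie2, STAR 2.5.3a, MACS2, HTSeq and mm9 without roles, so which program made the counts, and its strand setting, are not given in the sources used here. Per the labels, embryonic libraries were made with SMARTer v4, adult ones with TruSeq, and reads were 75 bp. The adult columns hold 2 blank cells that push later values down, and they were closed up before use: over the 1730 genes below the second blank, which include 20 members, the Spearman correlation of adult with E18 libraries across genes went from 0.483 to 0.495 up to 0.957 to 0.973. Another 2 columns of per-sample values were not used. Replicate libraries differed beyond counting noise (chi-square per degree of freedom 1.53 to 132).

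Counts were tested in edgeR 4.0.16 (R 4.3.3; TMM, filterByExpr with a minimum count of 10, quasi-likelihood), with the 27 embryonic libraries in 1 fit (17239 genes) and the 4 adult ones in another (12444). Benjamini-Hochberg adjustment ran over all genes tested. SE was taken as the log2 change over the root of F. Fits were tested on simulated data, where the adult fit gave more false calls than the embryonic one, so adult calls are less certain. SE includes the spread between libraries as estimated in these fits, whereas the floors cover counting error only. The members, lists and alternatives were chosen with earlier results of these data known. Full statistics were to go to the called members with the largest change and no overlap between groups; others given in full were chosen after their values were seen. Alternatives were RLE scaling, no filter, DESeq2 1.42.0, other sets of libraries, a replicate block and other stages.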

Additional observations from a re-analysis of the deposited data

Results flagged for a closer look

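The interaction test in edgeR asked whether a member changed differently from E12 to E16 in one organ than in another. Of the calls counted above, 18 are listed, the 6 largest per pair of organs with no group at the floor. Values are on the log2 scale. No explanation was tested.

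Forestomach minus small intestine rests on no library that went against its label. The change was more positive in forestomach for Fzd10 by 7.32 (SE 1.26, adjusted p = 0.000245), for Sfrp2 by 7.31 (SE 0.35, adjusted p = 1.07e-10) and for Wnt5a by 7.29 (SE 0.65, adjusted p = 6.81e-08). Wnt11 followed with 5.57 (SE 0.63, adjusted p = 1.16e-06), Dkk3 with 4.92 (SE 0.43, adjusted p = 4.03e-08) and Rspo3 with 4.59 (SE 1.30, adjusted p = 0.00998). Wnt5a went from 2.4 and 4.22 CPM to 38.7 and 53.9 in forestomach, and from 24.6 and 22.9 to 1.56 and 2.67 in small intestine.

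Forestomach minus hindstomach uses the libraries labelled hindstomach at E12. The difference in change was 5.50 for Wnt6 (SE 1.58, adjusted p = 0.0144), 4.67 for Wnt5a (SE 0.61, adjusted p = 1.25e-05), 4.47 for Wnt11 (SE 0.59, adjusted p = 1.4e-05), -4.12 for Fzd5 (SE 0.40, adjusted p = 2.96e-07), 3.64 for Sfrp2 (SE 0.30, adjusted p = 1.27e-07) and 2.65 for Wnt4 (SE 0.67, adjusted p = 0.00617). The Wnt6 call was lost without some library: adjusted p = 0.0692 without E12 forestomach replicate 2, 0.0785 without E12 hindstomach replicate 1, 0.0509 without E16 forestomach replicate 1 and 0.0732 without E16 hindstomach replicate 1. With E14 in place of E12, Wnt5a kept its call (1.85, adjusted p = 0.0425). The other 5 did not, at -1.13 for Wnt6 (adjusted p = 0.733), 0.17 for Wnt11 (adjusted p = 0.936), 0.49 for Fzd5 (adjusted p = 0.509), -0.22 for Sfrp2 (adjusted p = 0.724) and -1.72 for Wnt4 (adjusted p = 0.0887).

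Hindstomach minus small intestine uses the same libraries. The difference was 4.05 for Sfrp1 (SE 0.37, adjusted p = 3.52e-07), 3.67 for Sfrp2 (SE 0.33, adjusted p = 5.96e-07), 3.66 for Rspo3 (SE 1.29, adjusted p = 0.047), 2.98 for Fzd3 (SE 0.41, adjusted p = 3.64e-05), 2.86 for Dkk3 (SE 0.41, adjusted p = 4.8e-05) and 2.61 for Wnt5a (SE 0.60, adjusted p = 0.0035). The Rspo3 call was lost without E12 hindstomach replicate 2 (adjusted p = 0.159), E12 small intestine replicate 1 (0.163) and each of the 4 E16 libraries (0.0818 to 0.139). With E14 in place of E12 all 6 were called: Sfrp1 2.81, Sfrp2 7.62, Rspo3 4.34, Fzd3 1.70, Dkk3 2.89 and Wnt5a 3.06.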

How the results depend on the processing

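No call of a member changed direction under an alternative that kept the stages compared. With another stage some did, among them Sfrp5 and Wnt11 in hindstomach over time and Fzd5 after deletion at E10, as given above. Dkk3, Fzd3 and Sfrp1 after deletion at E13 were called lower against E16 and higher against E18. Dkk2 in each stomach region against small intestine, and Sfrp2 in hindstomach, were called higher at E16 and lower at E14. Wnt2 in forestomach was called higher at E16 than at E12, and lower at E14 than at E12. The counts of called members that moved by more than 1.5 times were these. With only the compared groups fitted, forestomach against small intestine at E12 gave 1, hindstomach against small intestine 4 at E12 and 12 at E14, and small intestine E16 against E12 gave 10. Hindstomach against small intestine at E14 gave 8 in DESeq2 and 8 with no minimum fold change. With E14 in place of E16, forestomach against small intestine gave 12, hindstomach against small intestine 5, forestomach over time 13, small intestine over time 10, small intestine to E18 28, and forestomach minus small intestine 9. Where no share of all genes is given above for such an alternative, its count is not read against the background. Forestomach minus hindstomach gave 8 with E14 in place of E12, and the deletion at E13 gave 7 against E18. Without the libraries labelled hindstomach at E12 no other count moved that far.

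Leaving out 1 library at a time gave 3 to 6 in the adult, 14 to 19 for deletion at E10, 16 to 17 at E13 and 4 to 5 at E15. Forestomach against hindstomach gave 8 to 10 at E12, 8 to 11 at E14 and 13 to 14 at E16. Forestomach against small intestine gave 3 to 12, 9 to 11 and 25 to 29, and hindstomach against small intestine 11 to 18, 3 to 4 and 15 to 17. Over time the ranges were 18 to 21 in forestomach, 14 to 18 in hindstomach, 15 to 19 in small intestine and 16 to 17 to E18. The interactions gave 12 to 15, 15 to 20 and 11 to 16. A lone remaining library is assumed to vary like the other groups.

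Deviations of same-numbered libraries from their group means had correlations of -0.038 to 0.097 in the embryo and -0.152 in the adult. With 2 libraries in most groups, this cannot settle whether same-numbered libraries share a litter or batch, which the labels do not give. With the replicate block 19 members were called for deletion at E10, 20 at E13, 10 at E15 and 4 in the adult, and no count moved by over 1.5 times. Depth limits E16 forestomach most, and with 2 libraries per group calls of members at a few counts were often lost.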
